A study of Mus musculus with 2 samples.

Results

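Long noncoding RNA (lncRNA) promoters were examined as 7490 windows, each reaching 1 kb either side of an annotated gene start. A window was included if the gene was of type lincRNA, antisense, processed_transcript or bidirectional_promoter_lncRNA in the GENCODE M21 annotation of mouse build mm10 and its start lay over 2 kb from every annotated protein-coding start. The 7490 starts came from 9793 genes of these 4 types and from 55413 annotated gene starts in all, and the rule itself uses annotation and no measured value. They comprised 5371 lincRNA, 1694 antisense and 424 processed_transcript starts and 1 bidirectional_promoter_lncRNA start.

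The material was gastrocnemius, a calf muscle, taken from male hybrid mice of the strain B6CASTF1/J at 14 days of age. Nuclei were treated with DNase I, which cuts where DNA is not covered by nucleosomes, and the cut ends were sequenced (DNase-seq). The series held 1 group of 2 libraries, replicate 1 and replicate 2, with no other tissue, age or treatment, so the results are descriptions with no test between conditions. The labels mark both libraries as "3x Males", give them the running numbers 05 and 06 and name the same donor entry. They do not say that the libraries came from separate animals, so the spread between libraries may be partly technical, and chromatin of all cells in the muscle was measured together, so that few cells with an open site and many cells with a weakly open site cannot be told apart.

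A lncRNA is a transcript that is spliced or long but carries no long reading frame. Some lncRNAs act in the nucleus, on chromatin or in the structure of nuclear bodies, some act in the cytoplasm, and others are the primary transcripts from which microRNAs or small nucleolar RNAs are cut. In skeletal muscle, lncRNA loci are known as hosts of the muscle microRNAs, as parts of imprinted growth-control domains and as neighbours of genes for myogenic factors and contractile proteins. The promoter of an active gene is usually depleted of nucleosomes and cut by DNase I, and proteins bound within the open stretch protect short runs of bases, which are called footprints.

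The sequences below show what the open DNA at such starts looked like at 8 loci that recur in the results. They cover an abundant nuclear RNA (Malat1), a let-7 microRNA host (6720427I07Rik), starts near Mef2d and Myod1, a muscle-expressed and a myosin-neighbouring transcript (Nctc1 and 2310065F04Rik), and a pair of imprinted transcripts (H19 and Kcnq1ot1). Each is the stretch shared by the strongest peaks of both libraries in the window, except at 1700113A16Rik, where the strongest peaks of the libraries did not overlap and the peak of replicate 1 is given. The letters were read from the RefSeq genome GRCm38.p6, whose chromosomes are those of mm10, and run 5′ to 3′ on the strand of the lncRNA. Capitals mark bases that lay in footprints of both libraries. The reference is that of a single strain, so the alleles of these hybrids were not read.
Malat1, chr19:5803561-5803700, mm10, minus strand: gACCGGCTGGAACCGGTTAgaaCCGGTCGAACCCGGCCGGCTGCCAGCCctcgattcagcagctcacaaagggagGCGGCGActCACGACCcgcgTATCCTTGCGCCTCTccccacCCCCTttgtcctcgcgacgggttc
6720427I07Rik, chr13:48546601-48546800, mm10, minus strand: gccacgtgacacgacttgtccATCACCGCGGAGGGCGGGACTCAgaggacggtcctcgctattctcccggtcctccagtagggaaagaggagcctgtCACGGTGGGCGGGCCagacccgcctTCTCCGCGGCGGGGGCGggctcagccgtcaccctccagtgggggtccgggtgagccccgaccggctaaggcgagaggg
1700113A16Rik, chr3:88177621-88177840, mm10, minus strand: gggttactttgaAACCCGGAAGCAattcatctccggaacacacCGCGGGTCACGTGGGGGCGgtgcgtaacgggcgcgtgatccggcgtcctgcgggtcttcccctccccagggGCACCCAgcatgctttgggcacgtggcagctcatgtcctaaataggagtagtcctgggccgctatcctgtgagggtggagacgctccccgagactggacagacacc
Nctc1, chr7:142558561-142558760, mm10, minus strand: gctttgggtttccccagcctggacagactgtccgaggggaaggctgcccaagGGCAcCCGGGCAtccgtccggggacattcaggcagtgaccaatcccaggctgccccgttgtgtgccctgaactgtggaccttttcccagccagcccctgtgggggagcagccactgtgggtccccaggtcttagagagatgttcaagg
2310065F04Rik, chr11:67120781-67121040, mm10, minus strand: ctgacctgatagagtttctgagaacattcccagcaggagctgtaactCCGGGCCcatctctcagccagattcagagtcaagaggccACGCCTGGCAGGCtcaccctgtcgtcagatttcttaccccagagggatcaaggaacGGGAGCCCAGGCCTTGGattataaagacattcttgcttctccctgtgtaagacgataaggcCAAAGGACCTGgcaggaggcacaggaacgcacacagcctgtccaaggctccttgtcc
1700025L06Rik, chr7:46350221-46350420, mm10, minus strand: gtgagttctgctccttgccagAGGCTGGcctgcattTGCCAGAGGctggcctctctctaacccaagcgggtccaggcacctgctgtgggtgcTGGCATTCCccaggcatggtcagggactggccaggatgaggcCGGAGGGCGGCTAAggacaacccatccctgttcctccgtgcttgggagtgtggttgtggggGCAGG
H19, chr7:142578141-142578340, mm10, minus strand: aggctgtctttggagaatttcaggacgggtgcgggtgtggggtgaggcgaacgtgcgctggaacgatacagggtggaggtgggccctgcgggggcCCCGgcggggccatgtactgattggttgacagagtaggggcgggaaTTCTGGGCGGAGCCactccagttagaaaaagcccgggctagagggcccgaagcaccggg
Kcnq1ot1, chr7:143296581-143296720, mm10, minus strand: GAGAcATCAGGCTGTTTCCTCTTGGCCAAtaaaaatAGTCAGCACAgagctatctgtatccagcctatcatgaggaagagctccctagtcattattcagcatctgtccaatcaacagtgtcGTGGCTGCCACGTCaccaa

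The 8 stretches differed in how much of them was footprinted in both libraries. At Malat1 79 of 140 bases lay in shared footprints, at Kcnq1ot1 52 of 140 and at 6720427I07Rik 55 of 200. At H19 the number was 18 of 200 and at Nctc1 11 of 200, although each library alone had 57 and 47 footprint bases in the Nctc1 stretch. The GC box GGGCGG, read on either strand, occurred 3 times in the 6720427I07Rik stretch, and 2 of the matches lay wholly inside shared footprints. It occurred 2 times at H19, with 1 match inside a shared footprint, and 1 time at 1700025L06Rik, inside a shared footprint. The 1 match at 1700113A16Rik overlapped a shared footprint without lying wholly inside it. The CCAAT box CCAAT occurred 2 times at Kcnq1ot1 and 1 time each at H19 and Nctc1, and none of these 4 matches lay wholly inside a shared footprint. The TATA box TATAAA occurred only in the 2310065F04Rik stretch among the 8, outside the shared footprints.

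The stretches also differed in their place. Those of H19, Kcnq1ot1, Nctc1 and 6720427I07Rik were centred 97.5, 101.5, 64.5 and 200.5 bases upstream of the annotated start. The stretch near Mef2d was centred 54.5 bases downstream of the 1700113A16Rik start. The centres lay 830.5 bases upstream at 2310065F04Rik, 947.5 bases upstream at 1700025L06Rik and 958.5 bases upstream at Malat1, near the edge of the window.

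Of the 7490 lncRNA windows, 1094 overlapped a strict peak in both libraries and are called open here. A strict peak belongs to the shorter of the 2 peak lists deposited for each library. The open share was 14.6% (95% Wilson interval 13.8% to 15.4%), against 58.7% of 21938 protein-coding gene starts and 30.6% of all annotated gene starts. These intervals cover counting over windows only, and windows are not replicates. Replicate 1 alone had a strict peak in 16.6% of the lncRNA windows and replicate 2 alone in 17.3%. A strict peak was found in replicate 1 only at 149 starts, in replicate 2 only at 203 and in neither library at 6044. In the longer, permissive lists, 1519 lncRNA windows had a peak in both libraries, a share of 20.3%, beside 62.7% for coding starts and 34.3% for all starts. These lncRNA starts, over 2 kb from coding starts, were thus open less often than coding starts in each library and in each list. Of the 2303 lncRNA starts within 2 kb of a coding start, which the rule leaves out, 1519 were open (66.0%).

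The open windows stood above the DNA around them. Windows of the same size moved 10 or 5 kb upstream, or 5 or 10 kb downstream, of the same starts were open at 6.07%, 6.80%, 6.72% and 6.81%. Some moved windows came within 2 kb of a coding start. Among those that stayed over 2 kb away, the shares were 4.94%, 5.41%, 5.51% and 5.03%. In bins of 500 bases along the direction of transcription, the bin just upstream of the start held a peak centre at 8.80% of lncRNA starts in replicate 1 and 8.76% in replicate 2. The median of the bins 5 to 10 kb away was 2.21% and 2.32%, so the first upstream bin was 3.98 and 3.78 times the flank. At coding starts the same bin held a peak centre at 39.5% and 38.8%, which was 15.8 and 15.3 times their flank of 2.5% and 2.54%.

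**Figure D1:**
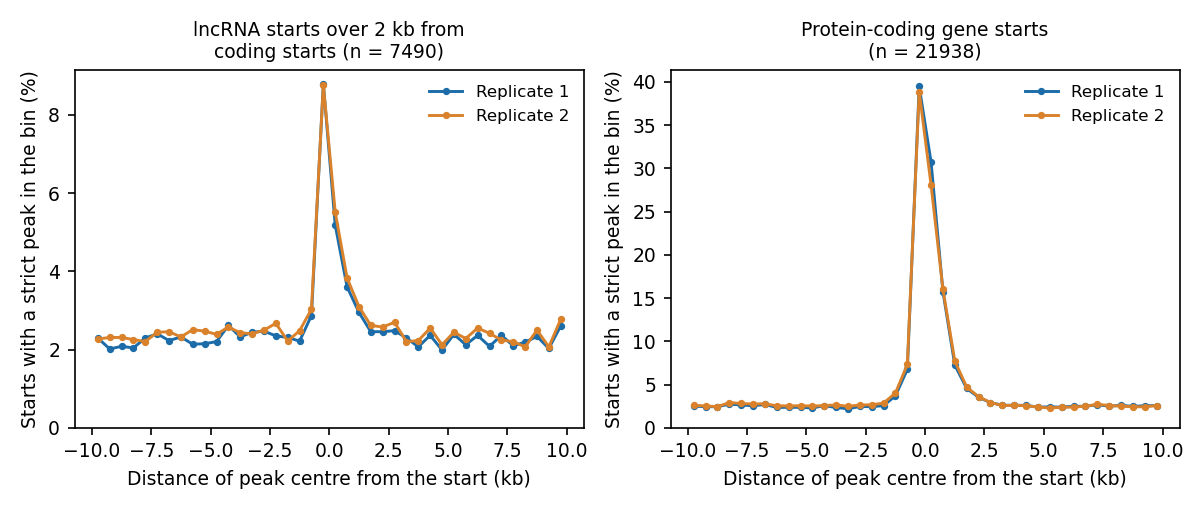
Share of starts (y axis, percent) with the centre of a strict peak in each bin of 500 bases, by distance from the annotated start in the direction of transcription (x axis, kb, upstream negative), for 7490 lncRNA starts and 21938 protein-coding starts; points are bins and colours the 2 libraries. The lncRNA curve reached 8.80% and 8.76% just upstream of the start over a flank of 2.21% and 2.32%, and the y axes of the 2 panels differ.

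Peaks at open lncRNA starts were placed less tightly on the start than peaks at open coding starts. The strongest peak covered the annotated start itself at 31.2% of open lncRNA windows in replicate 1 and 32.1% in replicate 2, against 64.2% and 64.7% of open coding windows. Its centre lay within 250 bases of the start at 50.8% and 49%, against 78.0% and 77.7%. The median distance of the centre from the start was 240 and 260 bases for lncRNAs and 71.5 and 73.5 bases for coding genes. The peaks themselves had similar widths, with medians of 180 and 200 bases at lncRNA starts and 200 and 220 at coding starts.

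The gene types were unequal. Of the processed_transcript starts 116 of 424 were open (27.4%, interval 23.3% to 31.8%). Open starts made up 737 of 5371 among lincRNAs (13.7%) and 241 of 1694 among antisense transcripts (14.2%), whose intervals of 12.8% to 14.7% and 12.6% to 16% overlapped. The 1 bidirectional_promoter_lncRNA start had a strict peak in replicate 2 only. CpG-rich starts made up 10.6% of the processed_transcript starts and 2.82% of all lncRNA starts.

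CpG content divided the lncRNA windows more sharply than gene type did. A start counted as CpG rich if the 500 bases on either side had at least 50% G and C and an observed-to-expected CpG ratio of at least 0.6, the composition usual for promoters of housekeeping genes. CpG-rich lncRNA starts were open at 151 of 211 (71.6%, interval 65.1% to 77.2%) and CpG-poor ones at 943 of 7279 (13.0%, interval 12.2% to 13.7%). The corresponding shares at coding starts were 93.9% and 30.5%, and 44.4% of coding starts were CpG rich. Within the CpG-rich class, 90 of 122 lincRNA starts, 25 of 44 antisense starts and 36 of 45 processed_transcript starts were open. In the CpG-poor class, the processed_transcript share of 21.1% was still above the 12.3% of lincRNAs and the 13.1% of antisense transcripts.

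At CpG-rich open lncRNA starts the strongest peak lay within 250 bases of the start at 77.5% and 75.5%, close to the coding values, and at CpG-poor open starts it did so at 46.6% and 44.8%. Bases soft-masked as repeats in the reference covered a median of 11.5% of the sequence around open lncRNA starts and 19.5% around those that were not open.

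Openness also varied with the distance to coding genes. The share was 21.3% for the 616 lncRNA starts between 2 and 5 kb from a coding start, 17.6% between 5 and 10 kb, 17.8% between 10 and 50 kb, 14.9% between 50 and 100 kb, 9.40% between 100 and 500 kb and 4.88% for the 369 starts over 500 kb away. The intervals of the nearest and the farthest class, 18.2% to 24.7% and 3.11% to 7.58%, did not overlap. On the near side of the 2 kb limit, the share fell from 75.5% within 500 bases of a coding start to 35.0% between 1000 and 1500 bases and 23.6% between 1500 and 2000 bases. Just beyond the limit it was 20.5% between 2000 and 2500 bases, with 23 of 112 starts open. The lncRNAs closest to the limit were Gm45436 at 2001 bases and 9330158H04Rik at 1996 bases, and neither had a strict peak.

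Starts inside the body of a coding gene were open at 231 of 1631 (14.2%) and those outside at 863 of 5859 (14.7%), with overlapping intervals of 12.6% to 15.9% and 13.8% to 15.7%. The ratio of the outside to the inside share was 1.04, and 1.14 with chromosome Y left out. Where the nearest coding gene was open at any of its own starts, 882 of 5310 lncRNA starts were open (16.6%), and where it was not, 212 of 2180 (9.72%). Bases soft-masked as repeats covered a median of 16.4% and 25.4% of the sequence in these classes. The counts include chromosome Y, where 0 of 551 lncRNA starts and 4 of 183 coding starts were open. The same split without chromosome Y was not made. At 431 of the 1094 open lncRNAs the signal was above that at the gene start of the nearest coding gene in both libraries, and at 142 of these 431 the coding gene start was open too. At 564 the coding gene start was open and had the higher signal in both libraries.

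**Figure D2:**
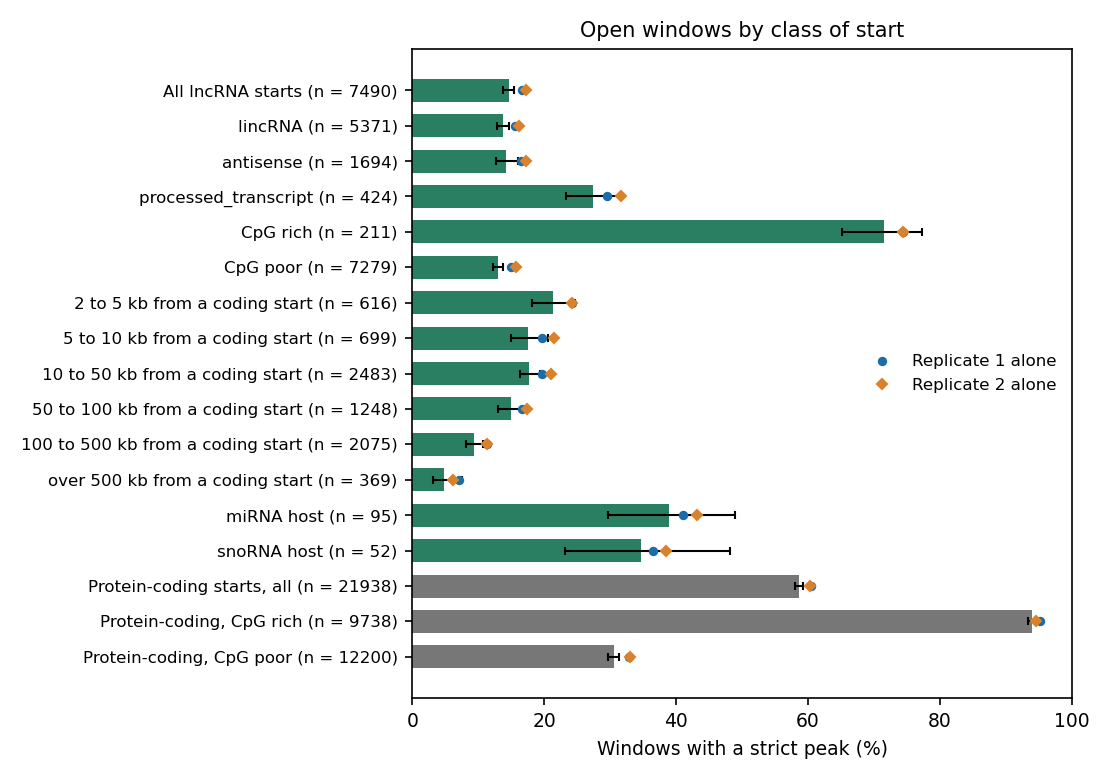
Share of windows with a strict peak (x axis, percent) for classes of lncRNA starts (green) and protein-coding starts (grey); bars are windows open in both libraries with 95% Wilson intervals over windows, and points are the share in each library alone. CpG-rich lncRNA starts reach 71.6%, starts over 500 kb from a coding start 4.88%, and coding starts as a whole 58.7%.

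The signal of a window was taken as the value that the authors' list gives to its strongest peak, in units whose scaling no source used here explains. In open lncRNA windows it ran from 0.184 to 30.5 in replicate 1, with a median of 1.71, and from 0.151 to 48.6 in replicate 2, with a median of 1.24. Medians in open coding windows were 6.14 and 3.51. Since the scales of the libraries differ, each value was also placed as a percentile among all strict peaks of its library. The median open lncRNA window stood at percentile 63.3 averaged over libraries and the median open coding window at 90.2. CpG-rich open lncRNA windows had a median of 88.7 and CpG-poor ones of 59.7.

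Footprints were found in both libraries at 1064 of the 1094 open lncRNA windows (97.3%). The median number per open window was 4 in replicate 1 and 5 in replicate 2, against 7 and 8 in open coding windows. At 65 open lncRNA windows each library had 10 or more footprints. Of the 6044 windows with a strict peak in neither library, 116 held a footprint in both. The same counts were not made for coding starts or for all starts. Whether these shares are particular to lncRNA starts therefore cannot be told.

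The 12 strongest members started between 5689 and 103562 bases from the nearest coding start. 1700096K18Rik had signals of 30.5 and 11.6 in replicates 1 and 2 and lay 13946 bases from the nearest coding start, that of Cct8l1, whose own start had no strict peak. Malat1, an abundant nuclear RNA of nuclear speckles, had 20.9 and 10.2. 6720427I07Rik, a host of let-7 microRNAs, had 23.8 and 9.29. All 3 stood above percentile 99.5 in each library.

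1810026B05Rik, which RefSeq names Chaserr and which in mouse lowers the output of its neighbour Chd2, had signals of 21.5 and 8.96, against 1.59 and 1.05 at the Chd2 gene start 16565 bases away. 1700028E10Rik, which starts inside Stard13 as RefSeq annotates it, had 20.6 and 9.66. The other members of the 12 highest were Gm33195, 9430037G07Rik, Tmem250-ps, Gm31812, Gm15408 and Gm10010, with signals of 14.8 to 18.6 in replicate 1 and 7.64 to 15.8 in replicate 2. The remaining member, Gm42418, had 23.4 and 48.6 and was the only one of the 12 whose signal was more than 2 times as high in replicate 2 as in replicate 1. Its start lies inside Rn18s-rs5, which RefSeq annotates as a pseudogene related to 18S ribosomal RNA (chr17:39846354-39848202). The part of other ribosomal RNA sequences in this value was not tested.

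Footprint bases were densest at 6720427I07Rik, with 336 and 339 bases in the window, and at 2410080I02Rik, with 379 and 278 bases in 29 and 23 footprints, which starts 6326 bases from Klf9, a gene for a zinc-finger transcription factor. Zswim6 carried 309 and 328 footprint bases and signals of 17.1 and 6.74, but in GENCODE M21 it stands as a processed_transcript while RefSeq places a protein-coding Zswim6 start at the same base. Tmem250-ps likewise lies 15 bases from a curated RefSeq coding start. In all, 74 of the 7490 starts lay within 2 kb of such a start, and 29 of them were open (39.2%, interval 28.9% to 50.6%), beside 14.6% of all lncRNA starts.

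Of 18 members on the list of abundant nuclear and housekeeping lncRNAs, 17 were open, beside 14.6% of all lncRNA starts. Of these 18, 11 were CpG rich, a class open at 71.6% among all lncRNA starts. All gene lists were chosen with earlier results of these data known, so their shares are descriptions only. The lists share members: Meg3 stands on this list, on the imprinted list and on the outside list, and Nctc1 on the imprinted and the muscle and heart lists. Over all lists, 36 of 56 distinct members were open. Neat1, the scaffold RNA of nuclear paraspeckles, had signals of 9.99 and 4.79 and 17 footprints in each library. Among hosts of small nucleolar RNAs, Snhg8 had 15.6 and 8.0, Snhg5 11.1 and 8.45 and Snhg15 10.9 and 9.23. Lower signals on the list included Dancr with 8.35 and 3.09, 2900097C17Rik, which RefSeq names Norad, with 3.05 and 1.70, and Pvt1 with 2.05 and 1.50. Miat had no strict or permissive peak in either library. Over all members, 18 of 52 snoRNA hosts were open (34.6%, interval 23.2% to 48.2%).

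**Figure D3:**
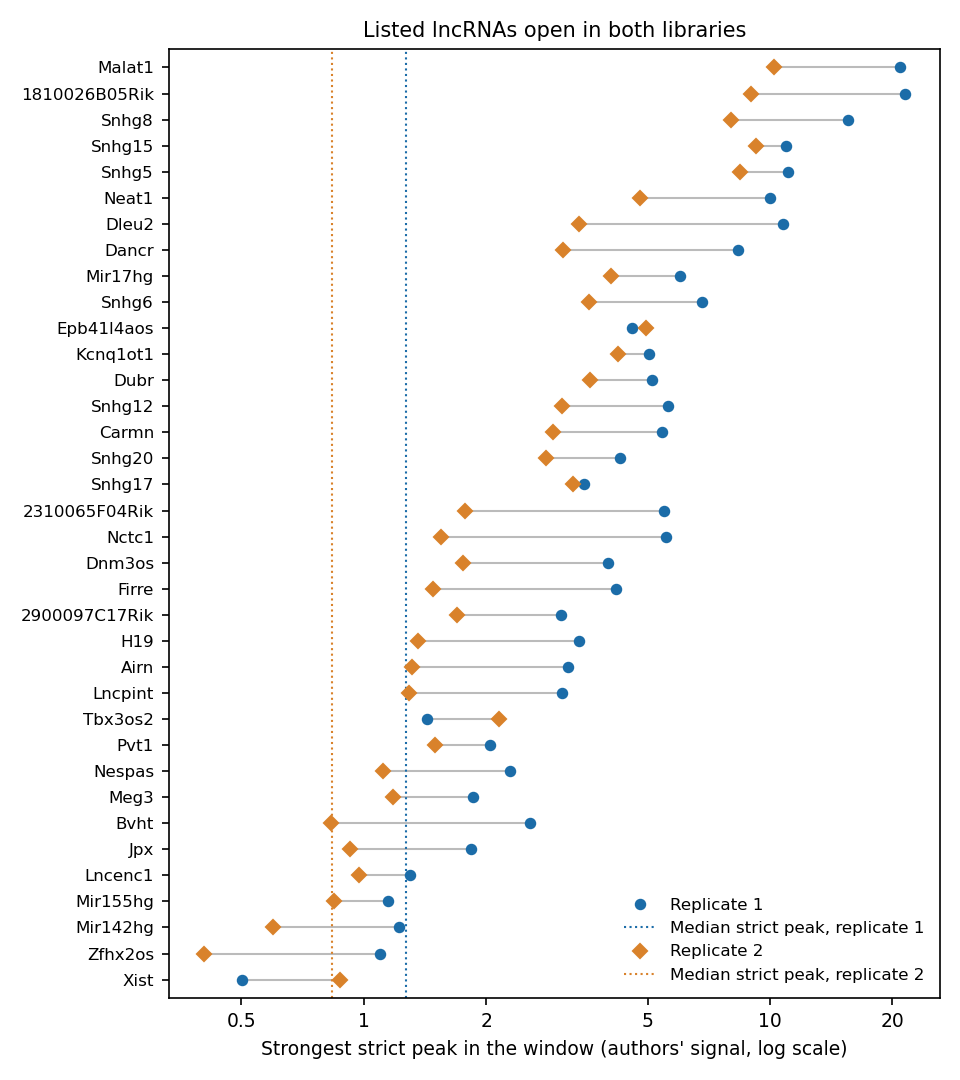
Signal of the strongest strict peak in the window (x axis, authors' units, log scale) for the 36 lncRNAs on the lists that were open in both libraries; points are the 2 libraries, grey lines join them, and dotted lines mark the median strict peak of each library, 1.27 and 0.835. Malat1 and 1810026B05Rik stand highest, and the lowest points are Xist in replicate 1 with 0.502 and Zfhx2os in replicate 2 with 0.404.

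Members tied to muscle were open in part. On the muscle and heart list 6 of 9 members were open, beside 14.6% of all lncRNA starts. This was not particular to that list, since 5 of 8 members of the outside list and 36 of 56 over all lists were open. Mir17hg, host of the Mir17 to Mir92-1 cluster, had 6.00 and 4.05. Dubr, which in mouse myoblasts takes part in differentiation, had 5.11 and 3.61. Carmn, known from the heart and smooth muscle, had 5.43 and 2.92, and Bvht, known from mouse heart differentiation, had 2.56 and 0.830. All 4 exceeded the median strict peak of replicate 1, and Bvht lay just under that of replicate 2.

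Nctc1, a transcript of the H19 and Igf2 domain that is expressed in mouse skeletal muscle, had signals of 5.54 and 1.55. 2310065F04Rik had 5.50 and 1.78, at 41780 bases from its nearest coding start, that of the embryonic myosin heavy chain gene Myh3, which itself had no strict peak in either library. Both transcripts were CpG poor, with CpG ratios of 0.17 and 0.13. They ranked higher in replicate 1 than in replicate 2, at percentile 89.4 against 72.5 for Nctc1 and 89.4 against 76.0 for 2310065F04Rik.

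The members that host muscle-restricted microRNAs, Gm28653 and Mir133a-1hg, had little signal at their GENCODE starts. Gm28653, which overlaps Lincmd1 in RefSeq and hosts Mir206 and Mir133b, had no strict peak, and its permissive peaks had signals of 0.652 and 0.372. Mir133a-1hg, host of Mir1a-2 and Mir133a-1, had a permissive peak in replicate 1 only, with a signal of 0.730. RefSeq extends this gene past both ends of the GENCODE gene, and only the GENCODE start was examined. Mir99ahg, on the muscle and heart list, hosts Mir99a, Mirlet7c-1 and Mir125b-2 and none of the listed muscle microRNAs. It had a strict peak at its gene start in replicate 2 only, with 0.514, but another of its annotated starts was open with 3.87 and 3.09.

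The microRNAs of these hosts are shown because the host with the highest signal and the hosts of muscle microRNAs without a strict peak carry different seeds. Mature sequences are those of RefSeq on GRCm38.p6, 5′ to 3′, with the seed, bases 2 to 8, in capitals.
let-7a-5p: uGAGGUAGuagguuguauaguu
let-7d-5p: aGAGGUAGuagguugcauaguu
let-7f-5p: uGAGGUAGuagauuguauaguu
let-7b-5p: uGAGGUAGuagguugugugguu
let-7c-5p: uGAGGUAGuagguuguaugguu
miR-29b-3p: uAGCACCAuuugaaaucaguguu
miR-29c-3p: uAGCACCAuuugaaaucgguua
miR-206-3p: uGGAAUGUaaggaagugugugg
miR-133b-3p: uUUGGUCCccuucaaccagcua

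The 5 let-7 members share the seed GAGGUAG and came from several open hosts. 6720427I07Rik holds let-7a, let-7d and let-7f, with the signals of 23.8 and 9.29 given above. Lncppara holds let-7b and let-7c and had 5.15 and 3.56, and let-7c also lies in Mir99ahg. Gm49317, whose start lies in Mir100hg of RefSeq, holds Mir100, Mir125b-1 and Mirlet7a-2 and had 7.80 and 5.29. A330023F24Rik, host of miR-29b and miR-29c with the shared seed AGCACCA, had 7.23 and 5.55. Gm20732, host of Mir30d, had 17.2 and 8.06, and Dleu2, host of Mir15a and Mir16-1, had 10.8 and 3.38. Over all members, 37 of 95 microRNA hosts were open (38.9%, interval 29.8% to 49%), against 14.1% of the 7345 starts that hosted neither kind of small RNA. Of 151 hosted microRNA genes, 106 had a mature sequence in the RefSeq table.

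On the list of lncRNAs from imprinted domains, where some genes are transcribed from a single parental copy, 6 of 9 starts were open, beside 14.6% of all lncRNA starts. Kcnq1ot1, which lies antisense within Kcnq1, was the highest on the average of the libraries with 5.04 and 4.23. H19 had 3.39 and 1.36, Airn, which overlaps Igf2r, 3.19 and 1.32, Nespas 2.29 and 1.11 and Meg3 1.86 and 1.18. Nctc1, described above, was the other open member. Rian and Mirg, which follow Meg3 in the Dlk1 to Dio3 domain, and Snhg14 had no strict or permissive peak in either library at their GENCODE gene starts. RefSeq extends Snhg14 upstream to chr7:60450177, past the GENCODE start at 59975759 on the minus strand. The RefSeq start was not examined. The peak lists do not separate the parental alleles.

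On the X chromosome, 17 of 140 lncRNA starts were open (12.1%, interval 7.72% to 18.6%), beside 15.8% on the autosomes and 14.6% of all lncRNA starts. Among them were 3 of the 5 listed X-linked lncRNAs (interval 23.1% to 88.2%). Firre, a nuclear RNA of the X chromosome, had signals of 4.18 and 1.48, and Jpx, an activator of Xist, 1.84 and 0.927. Xist, which coats the inactive X chromosome in females and was measured here in male mice, had a strict peak of 0.502 at percentile 7.58 in replicate 1 and of 0.872 at percentile 51.9 in replicate 2. Tsix had no peak. Ftx had only permissive peaks at its gene start, with 0.429 and 0.294, and strict peaks of 6.18 and 3.34 at another annotated start.

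None of the 551 lncRNA starts on chromosome Y was open (0 of 551, Wilson interval up to 0.692%), where 4 of 183 coding starts were and where the libraries had 42 and 44 strict peaks in all. Bases soft-masked as repeats covered a median of 100% of the sequence around lncRNA starts on chromosome Y and 16.6% around the others, and the part of read placement in the missing peaks was not tested. Without chromosome Y the open share of lncRNA starts was 15.8%. The autosomes ranged from 12.1% on chromosome 3 to 24% on chromosome 17.

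On the list of lncRNAs beside developmental transcription factor genes, 2 of 10 members were open (interval 5.67% to 51.0%), a share that does not stand apart from the 14.6% of all lncRNA starts. The open ones were Tbx3os2 with 1.43 and 2.15 and Zfhx2os with 1.10 and 0.404. Hotair of the HoxC cluster, Dlx1as, Dlx6os1, Sox2ot, Six3os1, Rmst, Hand2os1 and Nkx2-2os had no strict or permissive peak in either library. On the list of immune, neural and other lncRNAs chosen as outside lists, 5 of 8 were open, beside 14.6% of all lncRNA starts. Lncenc1, with 1.30 and 0.973, and Meg3 were 2 of them. The highest was Dnm3os, host of Mir199a-2 and Mir214, with 3.99 and 1.76. The leukocyte transcripts Mir155hg and Mir142hg had 1.15 and 0.844, and 1.22 and 0.596, near or under the median strict peak of each library. The neural Mir124a-1hg and Mir124-2hg had no peak. Among leukocyte marker genes 1 of 4, Cd68, was open at any start, among fibroblast markers 4 of 4, among endothelial and Schwann cell markers 2 of 4 each, among red cell markers 1 of 4, among satellite cell markers 0 of 4 and among markers from outside the tissue 0 of 6. Over all coding genes, 63.4% were open at any annotated start. The part of cells other than muscle fibres in these lncRNA signals was not tested.

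Near muscle genes, 23 lncRNA starts lay within 50 kb of any annotated transcript start of 1 of 50 listed muscle genes. Of these, 8 were open (34.8%, interval 18.8% to 55.1%), beside 14.6% of all lncRNA starts. Distances run to the nearest annotated transcript start of the muscle gene. The signals given for muscle genes are those at the gene start, which can lie farther away, also over 50 kb. 1700113A16Rik, with signals of 17.9 and 6.61, lay 9533 bases from an annotated start of Mef2d, a gene for a transcription factor of muscle differentiation. Its nearest curated RefSeq coding start was 35413 bases away. The gene start of Mef2d had 12.5 and 5.71. Gm26664, 42588 bases from an annotated start of Nfix, which drives the fetal programme of muscle genes in mouse, had 12.6 and 7.49. The Nfix gene start had 3.04 and 2.35. The coding start nearest to Gm26664 was that of Ier2, 2276 bases away, and Ier2 was open in both libraries. 1700025L06Rik, 27101 bases from Myod1, a master regulator of myogenesis, had 4.89 and 1.48, against 6.94 and 1.76 at Myod1.

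At 2 of the 8, those near Mb and Chrna1, the coding start was not open. Gm49540, 7870 bases from Mb, the myoglobin gene, had 4.04 and 1.36, and the Mb start had no strict peak in either library. Chrna1os, 4512 bases from Chrna1, which encodes the alpha subunit of the muscle acetylcholine receptor, had 2.68 and 2.23, and the Chrna1 start had 1.27 in replicate 1 and none in replicate 2. A930016O22Rik starts inside Ckm, the muscle creatine kinase gene, and had 3.41 and 2.33, where the Ckm start had 2.5 and 4.14. Gm37759, at the end of Cacna1s, the gene of the voltage sensor of the T-tubule, had 2.51 and 1.30, where the Cacna1s start was open with 4.25 and 1.01. The other 15 included Prr33 and Gm12315, which had a strict peak in replicate 2 only, with 0.913 and 1.06, and AW047730, which had permissive peaks only. Of the 50 listed muscle genes, 45 were open at any start, and Chrna1, Mb, Mstn, Myf5 and Myf6 were not. The share over all coding genes open at any annotated start was 63.4%.

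Motif letters were counted on both strands in the 300 bases from 250 upstream to 50 downstream of each start, and a base could count for more than 1 motif. The GC box GGGCGG stood in 24.9% of open lncRNA promoters and 6.54% of those not open, in 9.21% of all lncRNA promoters and in 43.0% of all coding promoters. The ETS-type letters CCGGAAG stood in 6.67% of open and 2.45% of other lncRNA promoters, 3.07% of all of them, and in 10.8% of all coding promoters. The E-box CAGCTG, the form bound by myogenic factors, stood in 22.8% of open and 16.9% of other lncRNA promoters, 17.8% of all of them, and in 15.6% of all coding promoters. In CpG-poor open promoters its share was 24.6% for lncRNAs and 19.1% for coding genes. At coding starts the GC box stood in 62.9% of open and 14.8% of other promoters. The ETS-type letters stood there in 16.5% and 2.65%. For the E-box the coding shares ran the other way, with 14.9% of open and 16.7% of other promoters.

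CCAAT and TATAAA were less frequent in open than in other lncRNA promoters. CCAAT stood in 35.0% and 41.2%, 40.3% of all of them and 39.0% of coding promoters. TATAAA stood in 12.2% and 16%, 15.4% of all and 12.6% of coding promoters. The AP-1 letters TGANTCA stood in 10.9% and 9.77%, 9.93% of all and 6.91% of coding promoters. In open and other coding promoters CCAAT stood in 38.3% and 40.1%, TATAAA in 7.18% and 20.4% and the AP-1 letters in 4.49% and 10.3%. The CRE letters TGACGTCA and the palindromic NRF1 site stood in 0.788% and 0.107% of all lncRNA promoters and in 2.43% and 1.22% of coding promoters.

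Replicates ordered the open lncRNA windows alike, but less closely than the coding ones. The rank correlation of the signals was 0.815 over 1094 lncRNA windows and 0.923 over 12868 coding windows, as descriptions across windows that share their libraries. Signals in replicate 1 were a median of 1.52 times those in replicate 2 for lncRNAs and 1.83 times for coding genes. Within 2-fold of the median ratio of their own class lay 84.8% of lncRNA and 96.1% of coding windows. The members with the largest difference in rank were Gm40614, 4930521E06Rik and Gm12002, higher in replicate 2, and Gm34474, 4930572G02Rik and Rab11fip4os2, higher in replicate 1. Gm40614 had 0.641 and 2.01, and Gm34474 had 1.49 and 0.298.

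**Figure D4:**
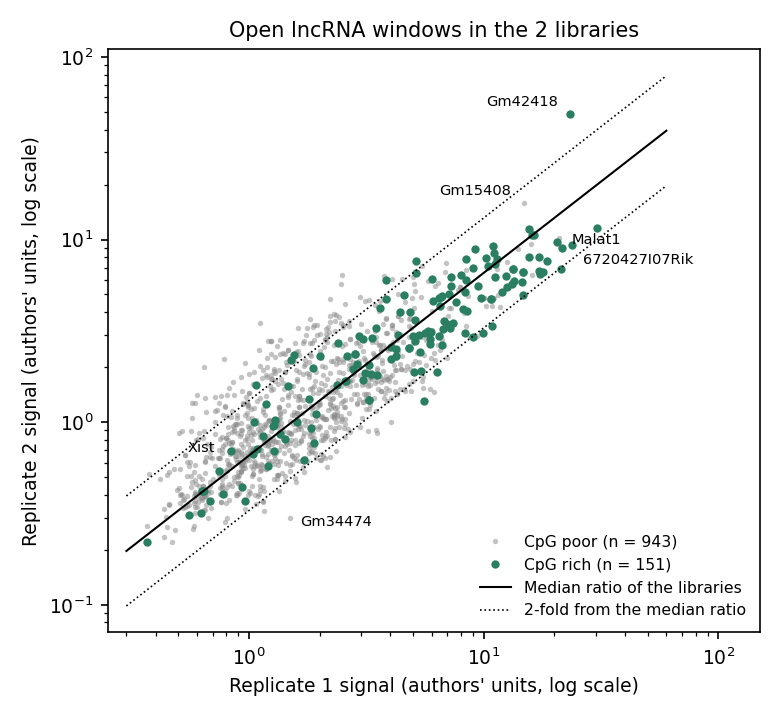
Signal of the strongest strict peak in replicate 1 (x axis) and replicate 2 (y axis), authors' units on log scales, for the 1094 open lncRNA windows, with 151 CpG-rich windows in green and 943 CpG-poor windows in grey. The solid line is the median ratio of 1.52, the dotted lines lie 2-fold from it, and Gm42418 stands above them with 23.4 and 48.6.

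Windows with a strict peak in a single library were weak. Their median signal was 0.674 where replicate 1 alone had the peak and 0.523 where replicate 2 alone had it, both under the median strict peak of the library, 1.27 and 0.835. A permissive peak was present in the other library at 106 of 149 and at 143 of 203 of them. Of the 6044 windows with a strict peak in neither library, 5316 (88.0%) held no base with an FDR under 0.05 in either library's track of cutting, and 248 held such a base in both.

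Annotation quality and alternative starts moved the counts. Genes of transcript support level 1 or 2 were open at 606 of 3393 (17.9%), those of level 3 at 13.1% and those of level 5 at 7.67%. Of 1823 lncRNAs with more than 1 annotated start, Ftx and Mir99ahg were among 59 that did not have a strict peak in both libraries at the gene start but did at another start. Dleu2 was open at its gene start and higher at another, with 14.5 and 5.85. Some windows were not independent, since 74 open members shared their strongest peak of replicate 1 with another member.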

How the data were processed

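For each of 2 DNase-seq libraries of 1 group, the deposited lists of peaks and footprints and the track of FDR were used unchanged. Each peak's signal was assigned by the authors, who called peaks per library and not on pooled reads, per the deposited file descriptions. Aligner, callers, signal scaling and sequencing depth were not given in the sources used here. Depth per library was therefore unknown; replicate 1 had 82498 strict peaks and 320456 footprints and replicate 2 had 88198 and 384435. The FDR per base, a p-value adjusted by the authors, and the footprint limit, 0.01 in every entry, were deposited with the peaks. Per the labels, replicate 1 was sequenced on 2 instrument models.

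Genes and starts were those of GENCODE M21. A window took the signal of its strongest peak, and its percentile was taken among all strict peaks of the library. Every peak carried the same summit offset, so peak centres were used. Sequence, CpG ratio and repeats were read from RefSeq GRCm38.p6. Wilson 95% intervals cover counting over windows only. The rule for members uses annotation alone, but it, the gene lists and the motifs were chosen with earlier results of these data known. Named lncRNAs were the listed ones, the 12 highest by mean percentile, the 3 highest per type, the 5 with most footprint bases, the 3 most different between libraries in each direction, open ones near 50 listed muscle genes and the highest microRNA and snoRNA hosts. Of 105 listed symbols, 56 were members and 20 were not in the annotation under that symbol. Window size, peak list, signal limit, overlap, library, distance limit, annotated starts and annotation level were varied. Python 3.11.15, numpy 2.4.6, pandas 2.3.3, scipy 1.17.1, pysam 0.24.0 and matplotlib 3.10.9 were used, and the overlap code was tested on simulated data.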

Additional observations from a re-analysis of the deposited data

How the results depend on the processing

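Values are given beside those above: 14.6% open lncRNA windows, median percentile 63.3, 58.7% open coding windows, 4 footprints per open window averaged over libraries, and a ratio of 1.04 between the open shares outside and inside coding bodies. Windows of 250, 500 and 2500 bases either side gave 9.44%, 11.6% and 22.3% for lncRNAs, 53.4%, 56.2% and 62% for coding starts and ratios of 1.13, 1.09 and 0.953, the last of which turned the direction, and the widest gave percentile 61.7. The permissive list gave 20.3%, 66.9, 62.7% and 1.01. Peaks at or above the median signal gave 8.20%, 78.8, 51.6%, 5.5 footprints and 1.15. Requiring 50% of the peak inside the window gave 58.3% for coding starts and 1.03. A limit of 5 kb from coding starts gave 14.0% and 1.10, and 10 kb gave 13.6%, 60.4 and 1.07. Every annotated start gave 15.6%, 63.4% and 1.03. Support level 1 or 2 gave 17.9%, 66.0, 66.2% and 1.08, and GENCODE level 1 or 2 gave 59.2% for coding starts. With a library left out, the ranges were 16.6% to 17.3%, 57.3 to 58.8, 60.4% to 60.5%, 3 to 4 footprints and 1.007 to 1.013. After the data were seen, leaving out chromosome Y was added and gave 15.8% and 1.14, and a distance of 2 kb from curated RefSeq coding starts gave a ratio of 1.02. Coding starts were open more often than lncRNA starts under every alternative run on both. The label of a moved value rests on the spread between 2 libraries, and for the ratios and the coding share that spread was small.

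No paired analysis was possible because the series holds 1 group and compares no conditions. Depth was unknown, so windows without a peak were not detectably open, and this does not show that they are closed. Window size, peak list and signal limit moved the open share of lncRNA starts most, between 8.20% and 22.3%, and the choice of genes moved it between 13.6% and 17.9%.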
